A study of Mus musculus with 12 samples.

Results

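The genes described here are 10 immediate-early transcription factor genes, chosen by symbol: Fos, Fosb, Fosl1 and Fosl2 of the Fos family, Jun, Junb and Jund of the Jun family, Atf3, and the zinc finger genes Egr1 and Egr2. All 10 were found among the 55487 genes listed in every library. The series profiled primary mouse embryonic fibroblasts, connective tissue cells cultured from embryos in mid gestation, to compare cells with and without huntingtin. Every culture carried the HTT-floxed (HTTfl/fl) genotype, including the controls. HTT-deleted cells received a lentivirus that delivers Cre recombinase with GFP, and control cells received a lentivirus that delivers H2B-eGFP, a fluorescent histone. Both were harvested 7 days after transduction. From each suspension a small part gave total RNA and the rest gave ribosome-associated RNA, recovered with a ribosome pellet and called translated RNA in the sample titles. The 12 libraries form 4 groups of 3: ribosome-associated RNA of HTT-deleted and of control cells, and total RNA of HTT-deleted and of control cells.

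What the model holds sets limits. The controls differ from the HTT-deleted cells in the protein their virus encodes as well as in Cre, deletion by virus need not reach every cell, and the labels name no promoter that would restrict Cre to a cell type. The replicates are separate primary cultures or separate passages, so p-values measure the spread between such cultures and passages. The cells were in growth medium with serum and were not stimulated on a schedule, so the values are levels at harvest and not the early response itself. These are bulk samples, in which fewer cells of a type and less RNA per cell cannot be told apart.

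Immediate-early genes are switched on within minutes of serum, growth factors or stress, without new protein synthesis, mainly through the serum response factor, its ternary complex partners and CREB. Fos and Jun proteins pair through leucine zippers to form AP-1, and Atf3 is a stress-induced factor of the same basic leucine zipper class. Egr proteins bind GC-rich sites through zinc fingers. In fibroblasts these factors drive entry into the cell cycle, matrix-degrading enzymes and wound repair, and their messenger RNAs are short-lived.

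The libraries held 16789356 to 30571501 gene counts. Htt, the targeted gene, averaged 12.3 ± 2.81 CPM (counts scaled to the size of the library) in total RNA of HTT-deleted cells, against 56.4 ± 9.64 CPM in control cells (SD, n = 3 each), and 7.27 ± 4.81 CPM against 24.9 ± 6.26 CPM (SD, n = 3 each) in ribosome-associated RNA. All 10 fibroblast markers were detected, with a summed level of 27260 to 51340 CPM per library. The 18 macrophage markers were also present in every library, and markers of other cell types were mixed. Of 6 endothelial markers Pecam1, Cdh5 and Tie1 had at most 7 counts in a library and Emcn 5 to 44, but Kdr had 51 to 163 and Tek 102 to 566. Of 5 skeletal muscle markers Myod1 had no count and Myog, Myf5 and Pax7 had at most 20, but Des had 22 to 438. Of 6 mesothelial and epithelial markers Epcam had at most 3 counts and the other 5 had 3 to 386. Of 6 neural markers Olig2, Rbfox3, Sox2 and Gfap had at most 52 counts, but Tubb3 had 59 to 195 and Map2 1294 to 4926. The total library of HTT-deleted replicate 1 stood apart: the chi-square per degree of freedom that separates it from the other replicates of its group was 116 and 110, against 23.2 to 51.8 for every other pair of replicates in the series. Values without it are given for Fosl1, Fosl2, Fosb, Junb, Atf3 and Egr1.

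The genes covered a wide range of levels. Levels are compared between genes as CPM divided by exon length (CPM per kb), and median values over the 12 libraries follow. Jun was the most abundant at 43.1 CPM per kb, followed by Junb at 26.3, Egr1 at 21.5 and Fosl2 at 12. Fos stood at 6.39, Atf3 at 4.31 and Fosl1 at 3.70 CPM per kb. Fosb, at 0.658 CPM per kb, and Egr2, at 0.0981, were rare. The ranges over libraries overlapped between Jun and Junb, between Junb and Egr1, between Fos and Atf3 and between Atf3 and Fosl1, while those of Egr1 and Fosl2, Fosl2 and Fos, Fosl1 and Fosb, and Fosb and Egr2 did not. Set side by side within a library, Jun was above Junb in all 12, Junb above Egr1 in 9, Fos above Atf3 in 10 and Atf3 above Fosl1 in 6 of 12. Within the Fos family, Fosl2 supplied 41.9 to 61.9% of the summed CPM per kb in each library, Fos 21.3 to 32.2%, Fosl1 8.64 to 33.7% and Fosb 2.16 to 3.27%. Fos itself varied least, with a highest library 1.43 times the lowest, and Fosl1 and Atf3 varied most, at 5.96 and 4.90 times.

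**Figure D1:**
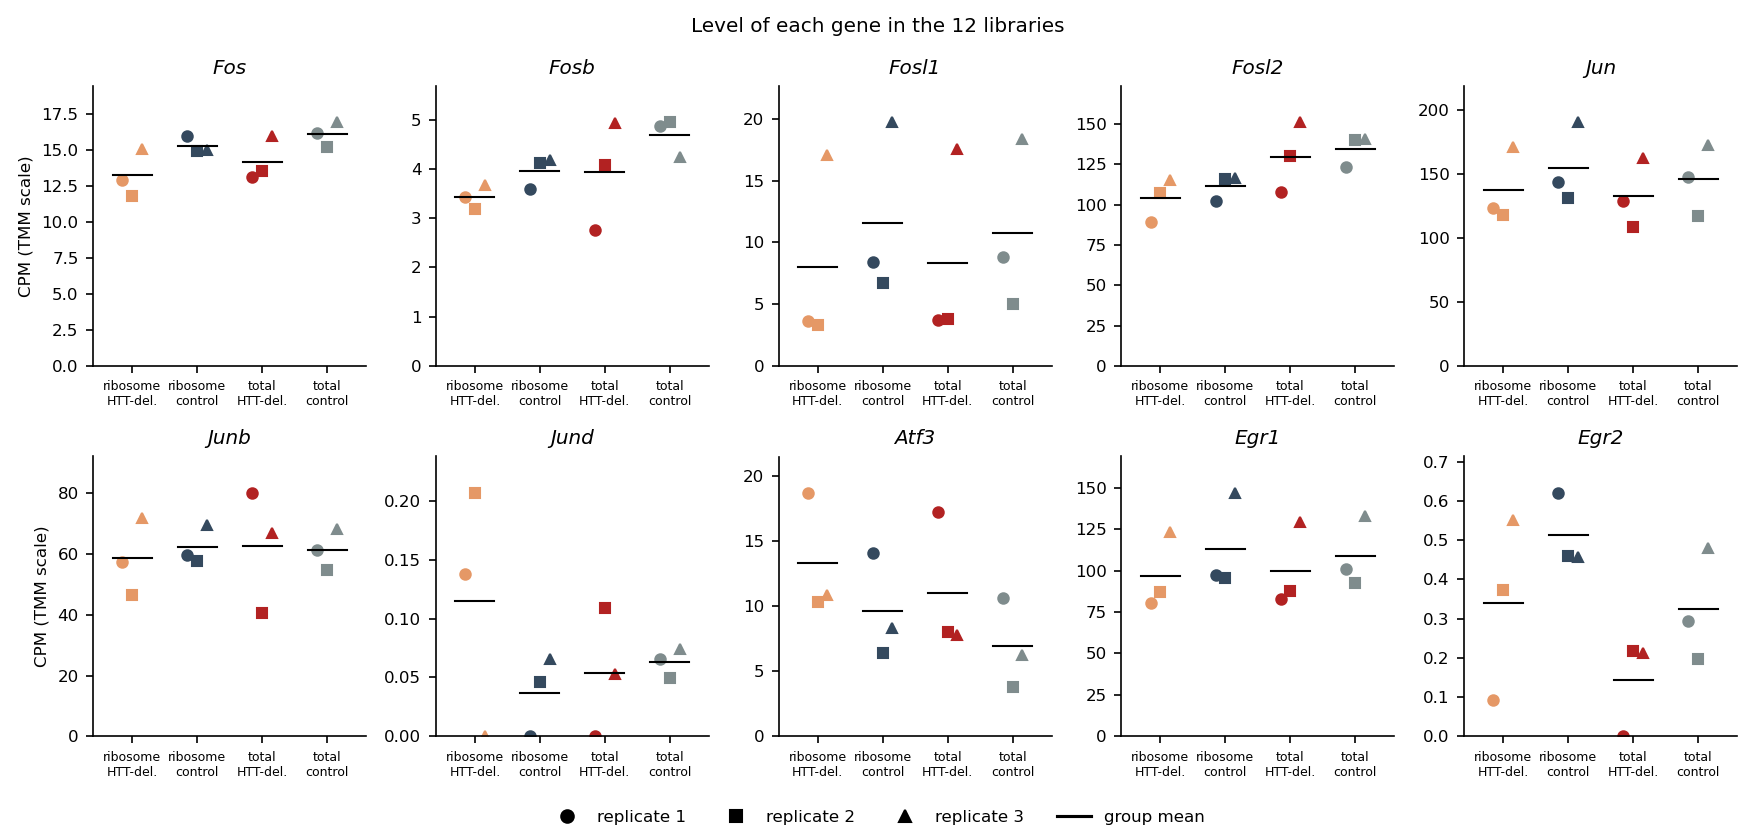
Each panel plots 1 gene, with the level in CPM on the vertical axis and the 4 groups on the horizontal axis (3 libraries each, marker shape by replicate number, bar at the group mean). Jun, Fosl2 and Egr1 lie near 100 CPM or above it in most libraries, Fosl1 is highest in the 4 libraries of replicate 3, Atf3 is highest in replicate 1 of each group, and the Jund and Egr2 panels rest on 0 to 15 counts.

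Jund cannot be read from these counts. Its gene, a single exon of 1668 bases on chromosome 8 (70698949 to 70700616, plus strand, GRCm38), received 3, 5 and 0 counts in ribosome-associated RNA of HTT-deleted cells and 0, 1 and 2 in that of controls. In total RNA it received 0, 2 and 1 counts in HTT-deleted cells and 2, 1 and 2 in controls. A limit of 3 counts corresponds to 0.098 to 0.186 CPM in these libraries. JunD is broadly expressed in fibroblasts as background knowledge, and 919 of the gene's bases overlap Gm11175 on the opposite strand, which itself had 0 to 14 counts. A RefSeq start of Jund lies further upstream than the gene as annotated here, directly after base 70697738. The sources used here name neither the release of the annotation nor whether counting used strand. Whether Jund reads were left out by the counting was not tested. No expression level or difference is therefore drawn for Jund.

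Promoter sequence is shown for Fos, Jun and Atf3, whose windows hold letters similar to CREB and AP-1 type sequences, which their proteins bind as a class. The windows of Fosb, Fosl2 and Junb, whose proteins are of the same class, hold neither TNACNTCA nor TGACGT. The windows shown therefore do not stand for all these genes. RefSeq windows (GRCm38.p6) were matched for 8 of the 10 genes, with none for Fosl1 and Egr1. The 250 bases before the start are printed 5′ to 3′ on the gene's strand, with motif matches in capitals.
Fos promoter, chr12:85473640-85473889, plus strand: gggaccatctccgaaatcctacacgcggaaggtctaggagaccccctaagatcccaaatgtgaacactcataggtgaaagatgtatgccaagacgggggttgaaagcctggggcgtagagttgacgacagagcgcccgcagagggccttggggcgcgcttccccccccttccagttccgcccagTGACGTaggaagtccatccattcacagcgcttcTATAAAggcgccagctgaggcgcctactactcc
Jun promoter, chr4:95052223-95052472, minus strand: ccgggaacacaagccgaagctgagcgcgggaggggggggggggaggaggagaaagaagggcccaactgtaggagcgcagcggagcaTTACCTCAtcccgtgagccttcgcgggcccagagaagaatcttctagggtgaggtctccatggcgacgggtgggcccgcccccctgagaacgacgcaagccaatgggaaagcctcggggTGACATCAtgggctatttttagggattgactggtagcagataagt
Atf3 promoter, chr1:191183334-191183583, minus strand: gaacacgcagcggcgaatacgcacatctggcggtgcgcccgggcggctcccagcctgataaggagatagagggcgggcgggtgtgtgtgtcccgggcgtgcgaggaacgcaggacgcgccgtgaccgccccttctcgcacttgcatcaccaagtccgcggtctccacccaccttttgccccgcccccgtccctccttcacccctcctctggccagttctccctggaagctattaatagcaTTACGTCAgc
Capitals in Fos mark TGACGT, whose first base is at -66, and TATAAA, at -33, counted from the start at 0. Those in Jun mark a pair of matches to TNACNTCA, at -164 and -45, and those in Atf3 mark 1 match, at -10. The Atf3 window lies at a start inside the annotated gene, which extends further upstream. TNACNTCA and TGACGT were added after the letters had been seen, both strands were searched, and TGACGT on the other strand overlaps TNACNTCA in Atf3. Over 32851 RefSeq windows of 300 bases, 250 before to 50 after a start, TNACNTCA was found in 16.4%, TGACGT in 7.51% and TATAAA in 13.6%. Among the 12 windows of these genes TNACNTCA was found in 3, the third being that of Jund. The Jund window lies upstream of the gene as annotated here. TGACGT was found in 5 windows, of which 3 are windows of Egr2 that hold the same site on the chromosome. The full AP-1 site TGANTCA (7.81% of windows) and the full CREB site TGACGTCA (1.79%) were found in none of the 12 windows of these genes. The CArG box, the binding site of serum response factor (1.63%), was found in 4 of the 5 windows of Egr2. These windows partly overlap, and in 3 of the 4 the match is the same site on the chromosome. GCGNGGGCG, an Egr site (5.55%), was found in Fosl2 and Fosb. Bases outside the windows, and the genes Fosl1 and Egr1, were not searched. A window without a match therefore does not mean that the gene lacks the site.

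The Fos family was compared first between HTT-deleted and control cells. Fos, the founding member (ENSMUSG00000021250, chromosome 12, 85473890 to 85477273, plus strand), had 13.1, 13.53 and 15.9 CPM in total RNA of HTT-deleted replicates 1, 2 and 3, against 16.1, 15.2 and 16.9 CPM in controls. In ribosome-associated RNA it had 12.9, 11.8 and 15.1 CPM in HTT-deleted cells, against 15.9, 14.9 and 15.0 CPM in controls. The first and the second HTT-deleted replicate lay below every control in both fractions and the third overlapped the controls. The log2 fold change was -0.15 (SE 0.15) in total and -0.20 (SE 0.13) in ribosome-associated RNA.

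Fosl1 encodes Fra-1, a longer-lived Fos protein that depends on sustained growth factor signalling (ENSMUSG00000024912, chromosome 19, 5447547 to 5455946, plus strand). It had 3.70, 3.82 and 17.5 CPM in total RNA of HTT-deleted cells, against 8.77, 5.04 and 18.3 CPM in controls. In ribosome-associated RNA it had 3.67, 3.31 and 17.1 CPM in HTT-deleted cells, against 8.37, 6.69 and 19.7 CPM in controls. Replicate 3 was high in all 4 groups, and the HTT-deleted library was the lower in all 3 pairs of each fraction. The fractions share their cultures, so their pairs are not independent. Over the groups the log2 fold change was -0.35 (SE 0.73) in total RNA and -0.53 (SE 0.75) in ribosome-associated RNA. The same-numbered pairs differed by -1.23, -0.39 and -0.06 in total RNA and by -1.17, -0.999 and -0.21 in ribosome-associated RNA on the log2 CPM scale, the difference being smallest in replicate 3 in both. Without control replicate 3 the fitted value changed sign, to 0.27 in total and 0.10 in ribosome-associated RNA, and in total RNA it was 0 or 0.003 without HTT-deleted replicate 1 or 2. Without HTT-deleted replicate 3 it was -1.46 in total and -1.73 in ribosome-associated RNA. These fits held no replicate term, so the same-numbered partner of the library left out stayed in. With replicate number in the fit as a block and all libraries kept, the log2 fold change was -0.52 (SE 0.27) in total RNA. In ribosome-associated RNA it was -0.70 (SE 0.175), and Fosl1 was called in neither. The annotated gene span of Fosl1 shares 2767 bases with that of Ccdc85b on the opposite strand, which had 455 to 1716 counts. The overlap exceeds the 2033 exon bases of Fosl1, so it includes intron, and the exon bases shared were not measured. The level of Fosl1 is uncertain where strand was not used in counting.

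Fosl2, which encodes Fra-2 and was the most abundant Fos family gene, had 108, 130.3 and 151 CPM in total RNA of HTT-deleted cells, against 123, 140.3 and 141 CPM in controls. In ribosome-associated RNA it had 89.4, 107 and 115 CPM in HTT-deleted cells, against 102, 116 and 117 CPM in controls. The groups overlapped in both fractions, with log2 fold changes of -0.03 (SE 0.15) in total and -0.10 (SE 0.11) in ribosome-associated RNA. Without HTT-deleted replicate 1 of the fraction these were 0.072 and -0.003. Fosb, whose product is best known from repeated stimulation of neurons, ranged over 2.76 to 4.94 CPM in total RNA of HTT-deleted cells, against 4.24 to 4.95 CPM in controls, and the fitted log2 difference was -0.23 (SE 0.27), or -0.044 without HTT-deleted replicate 1 and -0.41 without HTT-deleted replicate 3. In ribosome-associated RNA Fosb ranged over 3.18 to 3.68 CPM in HTT-deleted cells, against 3.595 to 4.18 CPM in controls, with a log2 fold change of -0.21 (SE 0.20).

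The Jun family supplies the partners of Fos proteins and can also pair with itself. Jun (ENSMUSG00000052684, chromosome 4, 95049034 to 95052222, minus strand), a single-exon gene and the main activating partner, had 129, 108 and 162 CPM in total RNA of HTT-deleted cells, against 148, 117 and 173 CPM in controls. In ribosome-associated RNA Jun had 123, 118 and 171 CPM in HTT-deleted cells, against 144, 131 and 190.3 CPM in controls. The HTT-deleted library was the lower in all 3 pairs of each fraction, while the groups overlapped because replicate 3 was high throughout. The log2 fold change was -0.10 (SE 0.21) in total RNA and -0.17 (SE 0.19) in ribosome-associated RNA. Junb, often an antagonist of Jun in growth control, had 80.2, 40.7 and 67.1 CPM in total RNA of HTT-deleted cells, against 61.3, 54.9 and 68.2 CPM in controls. The highest and the lowest Junb library were thus both HTT-deleted, and the log2 fold change was 0.06 (SE 0.26), or -0.18 without total HTT-deleted replicate 1 and -0.011 without total control replicate 2. In ribosome-associated RNA Junb ranged over 46.5 to 71.8 CPM in HTT-deleted cells, against 57.8 to 69.5 CPM in controls (log2 fold change -0.09, SE 0.17). The annotated gene span of Junb shares 351 bases with that of Prdx2 on the opposite strand, which had 3051 to 7126 counts. The level and differences of Junb are therefore uncertain where strand was not used in counting.

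Atf3, which is induced by cell stress and can repress or activate AP-1 type sites, had the highest log2 fold change of these genes in both fractions (ENSMUSG00000026628, chromosome 1, 191170296 to 191218039, minus strand). It had 17.2, 8.02 and 7.76 CPM in total RNA of HTT-deleted cells, against 10.6, 3.81 and 6.27 CPM in controls. In ribosome-associated RNA it had 18.7, 10.3 and 10.9 CPM in HTT-deleted cells, against 14.1, 6.37 and 8.30 CPM in controls. The HTT-deleted library was the higher in all 3 pairs of each fraction, and replicate 1 was the highest in all 4 groups, so the groups overlapped. The means were 11.0 ± 5.37 CPM in HTT-deleted cells and 6.90 ± 3.44 CPM in controls in total RNA (SD, n = 3 each), and 13.3 ± 4.68 CPM against 9.58 ± 4.01 CPM (SD, n = 3 each) in ribosome-associated RNA. The log2 fold change was 0.71 (SE 0.49) in total and 0.48 (SE 0.36) in ribosome-associated RNA. It was 0.20 in total RNA without total HTT-deleted replicate 1 and 0.15 in ribosome-associated RNA without HTT-deleted replicate 1 of that fraction. These fits held no replicate term. With the replicate block and all libraries kept, the log2 fold change was 0.72 (SE 0.22) in total and 0.49 (SE 0.13) in ribosome-associated RNA, called in neither.

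Macrophage markers moved with Atf3. All 18 had log2 fold changes above 0 in both fractions, with a median of 1.05 for total and 0.74 for ribosome-associated RNA. Their summed level was 7539, 1819 and 2841 CPM in total RNA of HTT-deleted replicates 1, 2 and 3, against 3259, 792.4 and 1860 CPM in controls. In ribosome-associated RNA it was 8495, 2808 and 3700 CPM in HTT-deleted cells, against 4926, 1197 and 2661 CPM in controls. Replicate 1 was the highest in all 4 groups for the markers as for Atf3, and their part in the Atf3 result was not tested. No marker of the list was at 0 in any library.

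The Egr genes are early zinc finger factors that induce their own Nab repressors. Egr1 (ENSMUSG00000038418, chromosome 18, 34859823 to 34864984, plus strand), the main member in fibroblasts, had 83.1, 87.7 and 129 CPM in total RNA of HTT-deleted cells, against 101, 92.3 and 133 CPM in controls. In ribosome-associated RNA Egr1 had 80.3, 87.4 and 123 CPM in HTT-deleted cells, against 97.3, 95.6 and 147 CPM in controls. As for Jun, the HTT-deleted library was the lower in all 3 pairs of each fraction and replicate 3 was the highest in every group. The log2 fold change was -0.10 (SE 0.22) in total RNA and -0.22 (SE 0.23) in ribosome-associated RNA. Without control replicate 3 the sign changed for Egr1, to 0.070 in total and 0.014 in ribosome-associated RNA, and for Jun, to 0.029 and 0.005. In total RNA Egr1 was at 0.007 without HTT-deleted replicate 1. In these fits too the partner of the library left out stayed in. With the replicate block and all libraries kept, Egr1 was at -0.10 (SE 0.14) in total and -0.22 (SE 0.08) in ribosome-associated RNA. Jun was at -0.10 (SE 0.14) and -0.17 (SE 0.08), and neither gene was called. Egr2, best known for its role in Schwann cells and the hindbrain, was close to the limit of counting. It had 0, 4 and 4 counts in total RNA of HTT-deleted cells, against 9, 4 and 13 in controls, and did not pass the filter on low counts there. In ribosome-associated RNA Egr2 had 2, 9 and 15 counts in HTT-deleted cells, against 10, 10 and 14 in controls (log2 fold change -0.54, SE 0.59), and the value was -0.13 without HTT-deleted replicate 1 and -1.08 without HTT-deleted replicate 3.

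**Figure D2:**
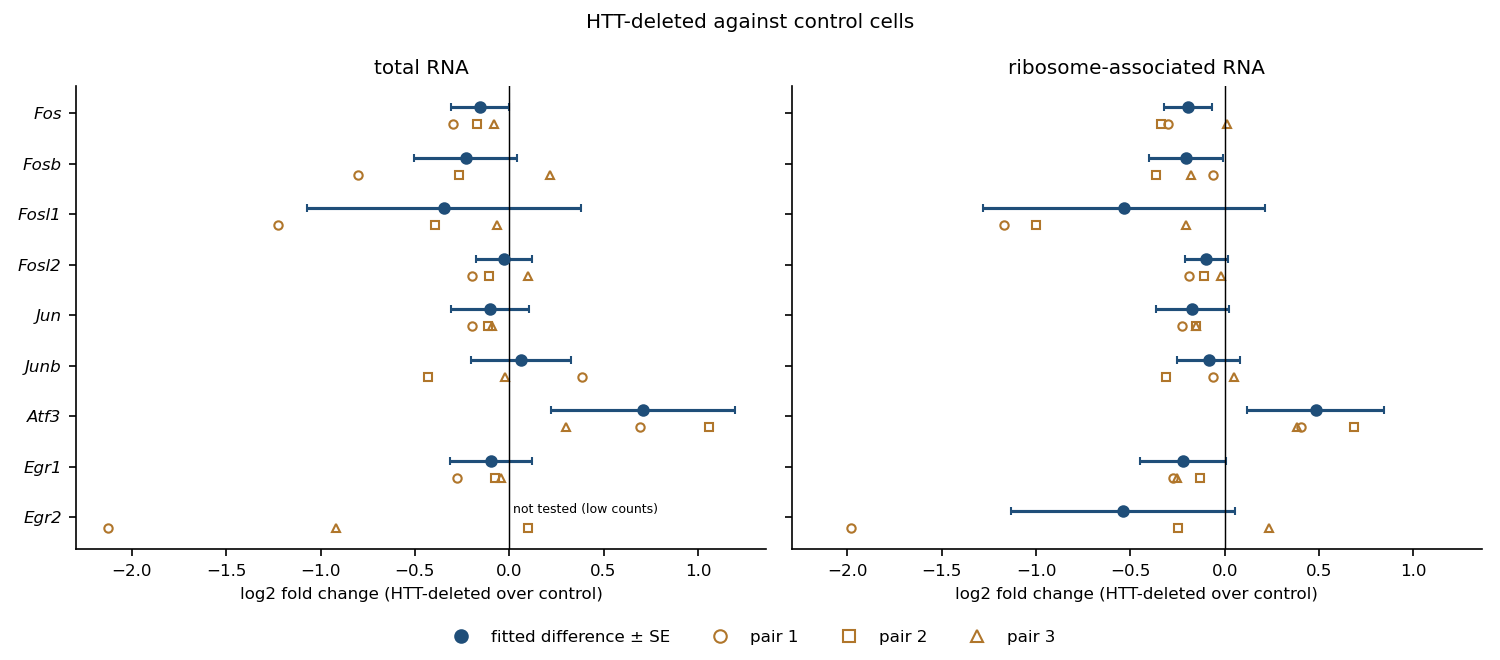
The horizontal axis gives the log2 fold change of HTT-deleted over control cells in total (left) and ribosome-associated RNA (right) for the 9 genes with a value. Filled points with bars are the fitted difference ± SE and open marks are the 3 same-numbered pairs on the log2 CPM scale. The 3 pairs of Atf3 lie right of 0 in both panels and those of Fosl1, Jun and Egr1 lie left of it.

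In edgeR's quasi-likelihood test, genes with an adjusted p (Benjamini-Hochberg, over all genes that passed the filter) under 0.05 count as called. None of these genes was called between HTT-deleted and control cells, of 8 tested in total and 9 in ribosome-associated RNA. The background was 0% of 14759 genes in total RNA, with 44 genes at an unadjusted p under 0.05, and 0% of 14588 genes in ribosome-associated RNA, with 110. The deleted gene itself was not called by this test: Htt had a log2 fold change of -2.16 (edgeR adjusted p = 0.812) in total and -1.78 (edgeR adjusted p = 1) in ribosome-associated RNA. A lack of calls at this spread is therefore no evidence that a factor did not change. DESeq2 called 3 genes in total RNA, Htt among them (adjusted p = 7.01e-12), and 1 in ribosome-associated RNA, where Htt was not called (adjusted p = 0.212). Limma voom called 0 in either, and none of these factors was called by either tool. The smallest unadjusted p among them was 0.191 for Atf3 in total RNA and 0.167 for Fos in ribosome-associated RNA. The median log2 fold change was -0.10 over the 8 factors in total RNA, against 0.01 over all genes tested, and -0.20 over the 9 in ribosome-associated RNA, against -0.001 over all genes tested. Of the 8, 4 were lower on the HTT-deleted side of all 3 pairs in total RNA (Fos, Fosl1, Jun and Egr1), as were 13.2% of all genes tested, and Atf3 was higher in all 3, as were 9.99%. Of the 9, 5 were lower in all 3 pairs in ribosome-associated RNA (Fosb, Fosl1, Fosl2, Jun and Egr1), as were 15.6% of genes tested, and Atf3 was higher, as were 16.1%. Both fractions come from the same cultures, so they do not repeat each other independently.

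Whether the HTT effect differed between the fractions was tested as an interaction over all 12 libraries. No factor was called, of 9 tested, and the background was 0% of 15574 genes by edgeR's quasi-likelihood test, with 85 at an unadjusted p under 0.05. The differences of the log2 fold changes, ribosome-associated minus total, ran from -0.19 (SE 0.64) for Atf3 and -0.17 (SE 1.13) for Fosl1 to 0.04 (SE 0.32) for Fosb and 0.61 (SE 1.06) for Egr2. For Jun the difference was -0.04 (SE 0.31), and for Fos it was -0.02 (SE 0.19).

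Ribosome-associated RNA was then compared with total RNA within each kind of cell. Each value is relative to the other genes of the libraries, and is not the share of a transcript's molecules found with ribosomes. In control cells 25.0% of 14990 genes were called and none of the 9 factors tested. In HTT-deleted cells 0.896% of 14627 genes were called, all lower, and none of the 8 factors. That count rested on the libraries used: it was 3008 without total HTT-deleted replicate 1, and 0 or 1 without any other single library of those cells. Same-numbered libraries of the fractions share a suspension, and once replicate number entered the fit as a block, 50.2% of genes were called in control cells, 24.3% higher and 25.9% lower, and 0.663% in HTT-deleted cells.

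Fosl2 had the smallest p of these factors between the fractions of control cells. In control cells it had 102, 116 and 117 CPM in ribosome-associated RNA, all below the 123, 140.3 and 141 CPM of total RNA. The pairs differed by -0.27, -0.28 and -0.27 on the log2 CPM scale. The log2 fold change was -0.28 (SE 0.09), with a Benjamini-Hochberg adjusted p of 0.0558 from edgeR's quasi-likelihood fit, and with the replicate block the adjusted p was 0.00397 (SE 0.07). It was also called with a filter at 5 CPM (edgeR adjusted p = 0.048), where 31.2% of genes were called, 17.8% lower, and by DESeq2 (adjusted p = 0.0453), where 28.8% were called, 16.1% lower. In HTT-deleted cells Fosl2 was lower in ribosome-associated RNA in all 3 pairs too, by -0.27, -0.28 and -0.39, while the groups overlapped (log2 fold change -0.33, SE 0.18, edgeR adjusted p = 0.573). Lower values in all 3 pairs were found for 34.7% of genes in control cells and 19.5% in HTT-deleted cells. Groups that do not overlap were common in control cells, at 44.1% of genes, 23.5% lower in ribosome-associated RNA.

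Atf3 stood higher in ribosome-associated RNA than in total RNA in every pair. In control cells the pairs differed by 0.41, 0.73 and 0.40, and in HTT-deleted cells by 0.12, 0.36 and 0.48, on the log2 CPM scale. The log2 fold change in control cells was 0.46 (SE 0.45) with an edgeR adjusted p of 0.526 after Benjamini-Hochberg adjustment, and 0.49 (SE 0.13) with an adjusted p of 0.00623 with the replicate block. In HTT-deleted cells it was 0.26 (SE 0.39), with an edgeR adjusted p of 0.907. Higher values in ribosome-associated RNA in all 3 pairs were found for 37.1% of genes in control cells and 22.1% in HTT-deleted cells. Of the 18 macrophage markers 15 had values above 0 between the fractions of HTT-deleted cells, with a median log2 fold change of 0.10, and 14 in control cells, with a median of 0.52, none of them called. Their part in the Atf3 result was not tested. When replicate 1 was left out of every group and the block kept, both genes passed in HTT-deleted cells as well: Fosl2 at -0.34 (SE 0.05, edgeR adjusted p = 1.93e-11) and Atf3 at 0.42 (SE 0.14, edgeR adjusted p = 0.00495). In that fit 55.6% of all genes were called in HTT-deleted cells, 27.7% higher and 27.9% lower, and 49.2% in control cells, 24.1% higher and 25.0% lower.

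None of the other factors was called between the fractions. In control cells Jun had a log2 fold change of 0.08 (SE 0.19), Egr1 0.06 (SE 0.21), Junb 0.02 (SE 0.11), Fos -0.08 (SE 0.10) and Fosl1 0.12 (SE 0.59). Fosb was lower in ribosome-associated RNA of control cells with groups that did not overlap, as were 23.5% of genes tested. It had 3.595, 4.13 and 4.18 CPM against 4.88, 4.95 and 4.24 CPM in total RNA (log2 fold change -0.25, SE 0.19, edgeR adjusted p = 0.383). Egr2 had a log2 fold change of 0.61 (SE 0.45) from 4 to 14 counts per control library.

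**Figure D3:**
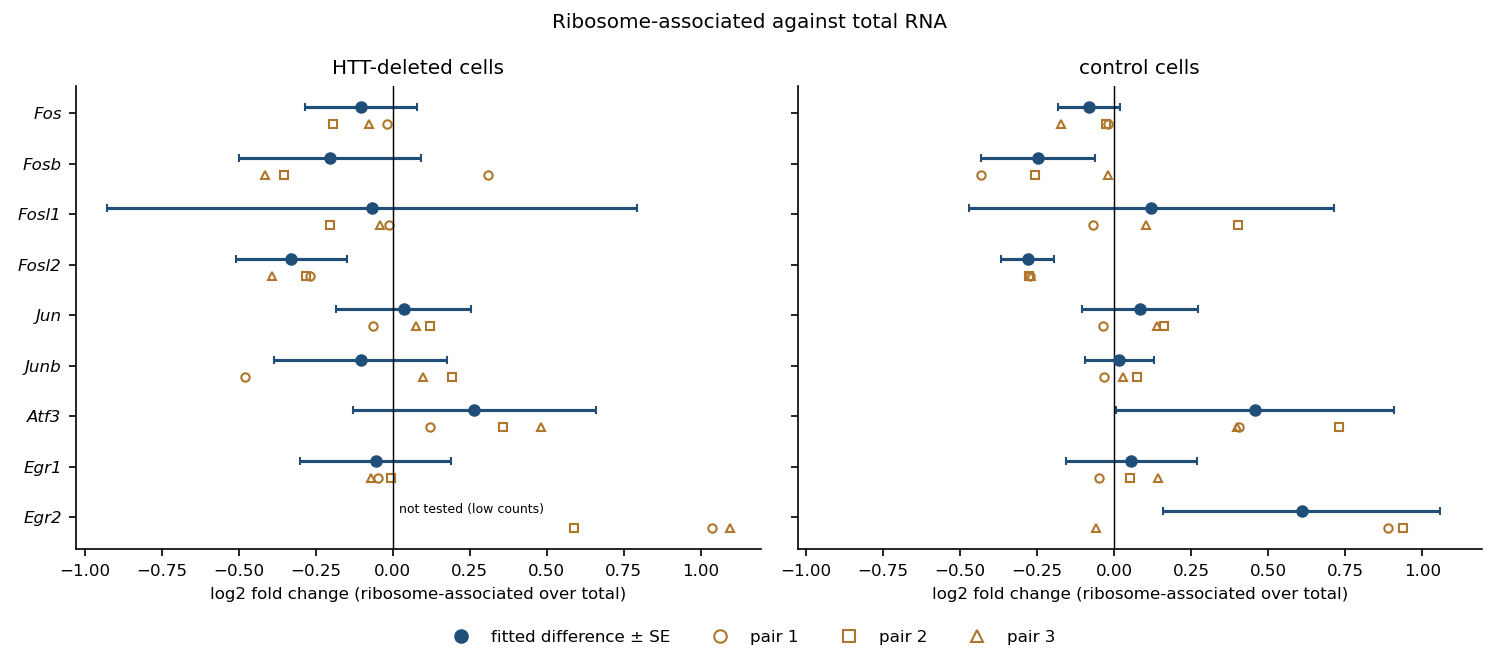
The horizontal axis gives the log2 fold change of ribosome-associated over total RNA in HTT-deleted (left) and control cells (right), with filled points for the fitted difference ± SE and open marks for the 3 same-numbered pairs. The 3 control pairs of Fosl2 coincide near -0.27, and all pairs of Atf3 lie right of 0 in both panels.

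Several of these genes had the same highest replicate number in every group. Fosl1, Fosl2, Jun and Egr1 were highest in replicate 3 of all 4 groups, and Atf3 in replicate 1 of all 4. For Fosl2 replicates 3 and 2 of the controls were close, at 140.8 and 140.3 CPM in total RNA and 116.7 and 115.8 CPM in ribosome-associated RNA. The share of all genes with the same highest replicate number in every group was not counted. For Fosl1 the 4 libraries of replicate 3 lay at 17.1 to 19.7 CPM, and the 8 libraries of replicates 1 and 2 at 3.31 to 8.77 CPM. For Egr1 the 4 libraries of replicate 3 lay at 123 to 147 CPM, and the 8 others at 80.3 to 101 CPM. The labels do not say which replicates were separate primary cultures and which were passages, so these sources cannot be told apart.

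**Figure D4:**
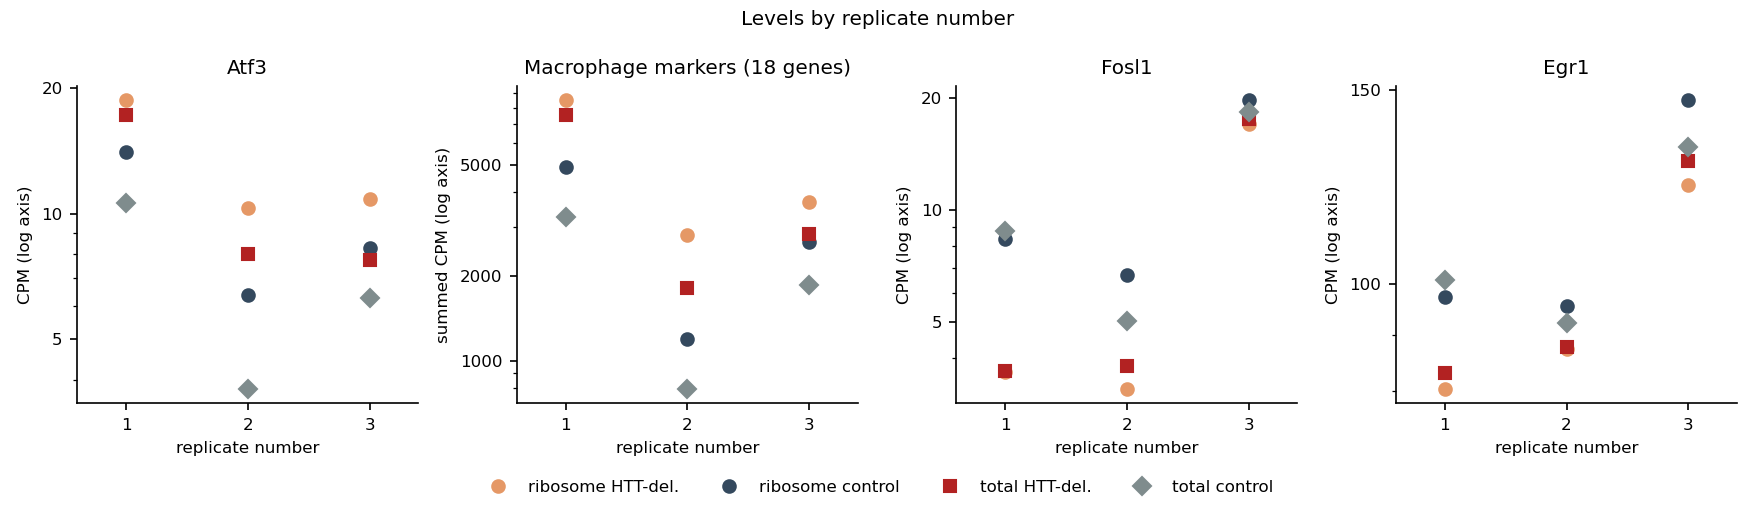
Levels of Atf3, the summed 18 macrophage markers, Fosl1 and Egr1 (CPM, log axes) are plotted against replicate number, with 1 mark per group. Atf3 and the macrophage markers are highest in replicate 1 of every group, and Fosl1 and Egr1 are highest in replicate 3.

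The authors' deposited table of their own comparisons listed 9 of the 10 factors. In ribosome-associated RNA the authors' deposited table gives Atf3 a log2 fold change of 0.49 (false discovery rate 0.000815) and Fosl1 -0.73 (false discovery rate 0.00532), and no other factor under 0.05. The background in the authors' deposited table is 4.21% of 16235 genes in that fraction, 3.12% higher and 1.09% lower. In total RNA the authors' deposited table gives no factor under 0.05, with Egr2 at -2.18 (0.0831), Fosl1 at -0.55 (0.0837) and Atf3 at 0.65 (0.148) nearest to it, where 4.97% of 16974 genes pass, 2.29% higher and 2.69% lower. Its header does not state the direction, which was read from Htt, at -2.18 in total RNA of the authors' deposited table, as HTT-deleted over control. The file is named after RUVSeq, which models unwanted variation, and its scores are likelihood ratios. The fits here differ in both respects and did not make these 2 calls. With the replicate block the edgeR adjusted p in ribosome-associated RNA was 0.0567 for Atf3 and 0.0627 for Fosl1. The reason for the difference in calls was not tested.

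Other early response genes were counted in the same way. Of 46 other early response genes, 44 were tested, 17 had a log2 fold change above 0 in total RNA (median -0.10, against 0.01 for all genes tested) and 8 in ribosome-associated RNA (median -0.15, against -0.001). None was called in either fraction. The smallest p in ribosome-associated RNA belonged to Ccn2, a matricellular growth factor at -0.34 (SE 0.11), Trib1, a pseudokinase at -0.45 (SE 0.15), and Ccn1, a matricellular protein at -0.36 (SE 0.13). With the replicate block, which called 1.69% of genes in that fraction, 1.46% higher and 0.233% lower, 2 members of the list were called lower. These were Errfi1, a feedback inhibitor of the EGF receptor, at -0.45 (SE 0.09, edgeR adjusted p = 0.0105), and Spry2, a feedback inhibitor of receptor tyrosine kinase signalling, at -0.34 (SE 0.08, edgeR adjusted p = 0.0281), both named after their values were seen.

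Of 18 genes known as AP-1 targets, 2 had a log2 fold change above 0 in ribosome-associated RNA (median -0.12) and 7 in total RNA (median -0.06), and none was called in either. The smallest p belonged to matrix metalloproteinases, Mmp3 at -0.65 (SE 0.23) and Mmp10 at -0.96 (SE 0.42) in ribosome-associated RNA, and Mmp13 at -0.81 (SE 0.37) in total RNA, while Mmp9, of the same family, was at 0.78 (SE 0.47) in total and 0.29 (SE 0.39) in ribosome-associated RNA. Of 8 Egr target and feedback genes 4 were above 0 in total RNA (median -0.06) and 1 in ribosome-associated RNA (median -0.09), with none called and F3, tissue factor, at -0.42 (SE 0.16) in ribosome-associated RNA. The other basic leucine zipper partners had 4 of 9 above 0 in total RNA (median -0.04) and 5 of 9 in ribosome-associated RNA (median 0.04), and the kinases and factors upstream 8 of 19 (median -0.06) and 11 of 19 (median 0.04). The RNA-binding proteins and decay enzymes that set the life of early transcripts, which hold destabilisers such as Zfp36, the stabiliser Elavl1 and the general enzymes Xrn1 and Cnot7, had 4 of 10 (median -0.003) and 2 of 10 (median -0.05), and none of these 3 lists had a gene called. The fibroblast markers, outside the early response, had 3 of 10 above 0 in total RNA (median -0.11). In ribosome-associated RNA they had 0 of 10 (median -0.11), with none called. Whether the small negative medians are particular to early response genes was not tested.

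**Figure D5:**
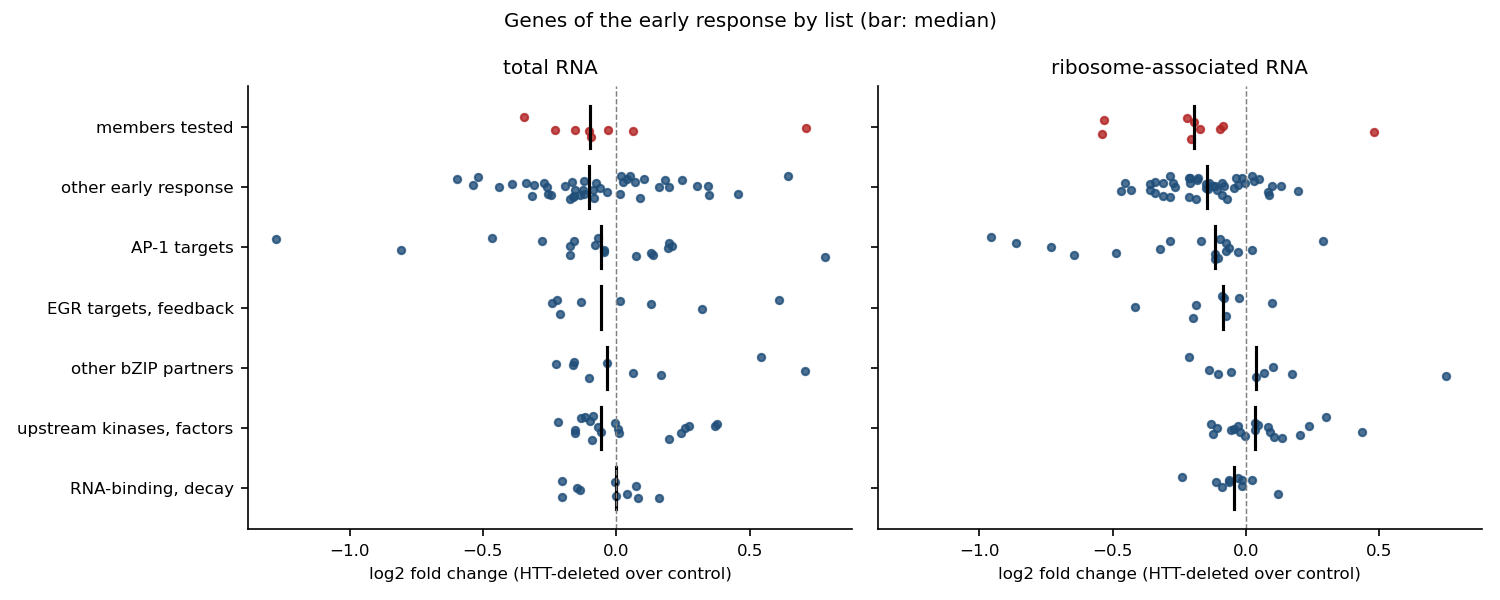
Each point is 1 tested gene of a list, placed by its log2 fold change of HTT-deleted over control cells in total (left) and ribosome-associated RNA (right), with a bar at the list's median. The medians lie between -0.10 and 0 in total RNA and between -0.20 and 0.04 in ribosome-associated RNA.

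Between the fractions these lists held called genes in control cells, beside the background of 10.0% of genes higher and 15.0% lower. Of the 44 other early response genes 1 was called higher and 2 lower in ribosome-associated RNA: Maff (0.36, SE 0.10), a small Maf factor, against Nfkbiz (-1.11, SE 0.18), a nuclear regulator of NF-kappaB, and Per1 (-0.49, SE 0.12), a clock repressor. Of the 18 AP-1 targets Mmp3 was called higher (0.39, SE 0.07) and Vegfa, a vascular growth factor, lower (-0.91, SE 0.12). Of the 9 basic leucine zipper partners Mafg, another small Maf factor, was called lower (-0.76, SE 0.07) and Maff, which is on both lists, higher. Of the 8 Egr target and feedback genes Id3, an inhibitor of basic helix-loop-helix factors, was called higher (0.40, SE 0.11). Of the 10 RNA-binding and decay genes 4 were called lower: Tia1 (-1.36, SE 0.11) and Tial1 (-0.80, SE 0.09), related RNA-binding proteins of stress granules, the exonuclease Xrn1 (-0.73, SE 0.14) and the deadenylase Cnot7 (-0.24, SE 0.07). Of the 19 upstream genes 3 were called lower, the kinase Mapk7 (-0.41, SE 0.08) and the serum response factor coactivators Mrtfa (-0.39, SE 0.10) and Mrtfb (-0.49, SE 0.13). In HTT-deleted cells Tia1 was the only gene of these lists called, at -1.25 (SE 0.16).

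Likeness of pattern was measured over the 12 libraries as the root mean square difference of log2 CPM, each gene centred on its own mean, over 13472 genes. For Fos, whose own SD was 0.155, the nearest genes were Slc6a8 (0.063), Sun2 (0.080), Nploc4 (0.083), Ddx27 (0.088) and Gas2l1 (0.089). For Egr1, with an SD of 0.294, they were Tcp11l2 (0.087), Foxc1 (0.101), Swap70 (0.106), Sertad4 (0.108) and Jun (0.109). Jun was thus at rank 5 of 13472 for Egr1, whereas Fos was at rank 392 and Atf3 at rank 11927. For Fosl1, with an SD of 1.005, the nearest were Gcnt4 (0.236), Sim2 (0.265), Dmp1 (0.278), Kirrel3 (0.284) and Selp (0.289), and no other factor lay closer than Egr1, at rank 306. A gene that varies little is near any other that varies little, so these distances are read beside each SD.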

How the data were processed

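RNA sequencing gave total and ribosome-associated RNA of HTT-deleted and control fibroblasts, 3 libraries each. Per the labels' protocols, directional libraries were made from 250 ng of RNA. Per the submitters' processing notes, reads were checked with FastQC, aligned with STAR 2.7.2b and counted with HTSeq 0.11.1 on GRCm38 (mm10), and edgeR was used. The authors deposited raw counts per Ensembl gene, and a deposited table of their own comparisons that holds p-values, false discovery rates, a likelihood ratio score, mean log2 CPM and log2 fold changes whose direction is not stated. The sources used here name neither the annotation release nor the strand setting. Symbols and exon lengths came from GENCODE M21 (GRCm38), which named 55394 of 55487 IDs. The 5 summary entries that name no gene stayed out of library sizes, and the no-feature entry held 2.64 to 3.30% of reads in ribosome-associated and 6.94 to 7.73% in total RNA. Per-sample columns not used numbered 0.

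Counts were scaled by TMM, filtered with filterByExpr and tested with edgeR 4.0.16 (quasi-likelihood, robust) under R 4.3.3, with Benjamini-Hochberg adjustment over all genes tested and calls at an adjusted p under 0.05. Only the groups compared entered a fit, and the difference of the HTT effects used all 12 libraries. The SE was derived as the size of the log2 fold change over the root of F. CPM used TMM factors over 12 libraries, log2 CPM used a prior count of 2, and floors of 3 counts cover counting error only. The fits were run on simulated counts that held no replicate effect, so that run does not show their power at the spread of these libraries. At 16789356 to 30571501 gene counts per library, counting error is largest for Jund and Egr2. It is not negligible for Fosb, at 50 to 149 counts per library, or for the lowest libraries of Fosl1 (67 counts) and Atf3 (77 counts). No replicates agreed within sampling noise.

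The members and lists were chosen with earlier results of these data known. Named were all 10 members, Htt, up to 4 members of each other list with the smallest p in a comparison, and the 5 genes nearest to Fos, Egr1 and Fosl1 in pattern; Mmp9 and the single cell type markers were named after their values were seen. Alternatives were RLE scaling, DESeq2 1.42.0, voom in limma 3.58.1, no filter, a filter asking 5 CPM in 3 libraries, the replicate block, all libraries in 1 fit, each library left out, and replicate 1 left out with the block. Samples were taken as paired by replicate number: the labels give both fractions 1 suspension, and deviations of same-numbered libraries from their group means correlated across 15574 genes, at 0.227, 0.576 and 0.444 between HTT-deleted and control total RNA, at 0.525, 0.703 and 0.626 in ribosome-associated RNA, at 0.347, 0.579 and 0.578 between the fractions of HTT-deleted cells and at 0.501, 0.737 and 0.651 in control cells.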

Additional observations from a re-analysis of the deposited data

How the results depend on the processing

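No member was called in the fits reported first. Of 638 alternative values for the members, 557 kept their direction and stayed uncalled, 9 passed the threshold and 72 changed sign, most of these with 1 library left out. Fits with 1 library left out held no replicate term, so the same-numbered partner of that library stayed in. Paired analysis with the replicate block called 247 genes between HTT-deleted and control cells in ribosome-associated RNA, 0 in total RNA, 0 for the difference of the HTT effects, and 97 and 7524 between the fractions of HTT-deleted and control cells. Among the members it changed the calls of Fosl2 and Atf3 in control cells alone, and Atf3 (edgeR adjusted p = 0.0567) and Fosl1 (edgeR adjusted p = 0.0627) came nearest in ribosome-associated RNA. With replicate 1 left out and the block kept the counts were 94, 14, 0, 8333 and 7445 in the order of total and ribosome-associated HTT effects, their difference, and the fractions of HTT-deleted and control cells. There Jun passed in control cells (0.15, edgeR adjusted p = 0.0366), and signs changed for Fosl2 (0.006) and Junb (-0.21) in total RNA, Egr2 (0.03) in ribosome-associated RNA, Fosb (-0.27) and Junb (0.087) in the difference, and Junb (0.14) between the fractions of HTT-deleted cells. DESeq2 called 3, 1 and 866 genes in total RNA, ribosome-associated RNA and between the fractions of HTT-deleted cells. The last count was 208 with no filter, 86 with the 5 CPM filter and 1135 with all 12 libraries in 1 fit, which gave 1646 in control cells. With no filter 1 gene was called in total RNA, and with the 5 CPM filter Junb was at -0.002 between the fractions of control cells. The cause of these shifts was not tested. With 1 library left out the counts were 0 for the HTT effects and their difference, 0 to 3008 between the fractions of HTT-deleted cells and 1507 to 3251 in control cells. Ranges with 1 library left out follow for members that changed sign or moved by over 1.5 times. For the HTT effect in total RNA these ranges were -1.46 to 0.27 for Fosl1, -0.14 to 0.072 for Fosl2, -0.41 to -0.044 for Fosb, 0.20 to 1.17 for Atf3, -0.25 to 0.029 for Jun, -0.18 to 0.30 for Junb and -0.30 to 0.070 for Egr1. For the HTT effect in ribosome-associated RNA these ranges were -0.30 to -0.11 for Fos, -1.73 to 0.10 for Fosl1, -0.18 to -0.003 for Fosl2, 0.15 to 0.86 for Atf3, -1.08 to -0.13 for Egr2, -0.36 to 0.005 for Jun, -0.26 to 0.060 for Junb and -0.43 to 0.014 for Egr1. For the difference of the HTT effects these ranges were -0.13 to 0.059 for Fos, -0.14 to 0.23 for Fosb, -1.38 to 0.96 for Fosl1, -0.15 to 0.063 for Fosl2, -0.24 to 0.13 for Jun, -0.35 to 0.11 for Junb, -0.64 to 0.31 for Atf3, 0.05 to 1.03 for Egr2 and -0.32 to 0.13 for Egr1. For the ribosome-associated over total RNA in HTT-deleted cells these ranges were -0.20 to -0.011 for Fos, -0.40 to -0.002 for Fosb, -0.44 to -0.20 for Fosl2, -1.25 to 1.09 for Fosl1, -0.14 to 0.20 for Jun, -0.33 to 0.12 for Junb, -0.057 to 0.74 for Atf3 and -0.25 to 0.17 for Egr1. For the same ratio in control cells these ranges were 0.09 to 0.93 for Atf3, 0.39 to 0.98 for Egr2, -0.12 to -0.054 for Fos, -0.51 to 0.73 for Fosl1, -0.090 to 0.21 for Jun, -0.069 to 0.088 for Junb and -0.18 to 0.22 for Egr1.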
